A study of Mus musculus with 4 samples.

Results

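Autophagy delivers cytoplasm to the lysosome, and its machinery is described here at the transcript level through 10 genes: the ATG8 genes Gabarap, Gabarapl1, Gabarapl2, Map1lc3a and Map1lc3b, the initiation genes Ulk1, Becn1 and Wipi1, the cargo receptor gene Sqstm1 and the transcription factor gene Tfeb. They were chosen by gene name, with earlier results of these data known and no threshold on their values, and all 10 were found among the 22079 genes of the table and passed the expression filter that left 10407 genes for testing. The 4 libraries were mRNA sequencing libraries of primary hepatocytes, the parenchymal cells of the liver, from Prom1-/- mice (KO 1 and KO 2) and from wild-type mice (WT 1 and WT 2), all male C57BL/6 animals of 8 weeks. All cells had attached for 4 hours in medium with 10% serum, 23 mM HEPES and 10 nM dexamethasone and then stayed overnight without serum, so every library comes from serum-deprived cells that had met a glucocorticoid. The labels call the replicates biological and name no litter, isolation day or pooling. The comparison asks what loss of Prom1, which encodes a membrane glycoprotein of plasma-membrane protrusions, does to hepatocyte transcripts without serum.

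When nutrients or growth factors are withdrawn, the ULK1 kinase complex starts autophagy and activates a lipid kinase complex built around Beclin 1, whose product recruits WIPI proteins to the growing membrane. ATG8 proteins, in the LC3 and GABARAP subfamilies, are then attached to lipid on that membrane and bind cargo receptors such as p62, the product of Sqstm1, which is itself degraded with its cargo. TFEB drives transcription of autophagy and lysosome genes and is held in the cytoplasm by mTORC1 in fed cells; in liver, fasting engages this programme. Transcript levels do not measure autophagic flux, which runs through lipidation and degradation of the proteins.

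Prom1 stood at 0 and 0.0458 FPKM in KO 1 and KO 2, against 0.571 and 1.22 FPKM in WT 1 and WT 2, where FPKM is the fragment number per kilobase of transcript scaled to depth. Its difference in log2(FPKM + 1), KO minus WT, was -0.87 (SE 0.19), with a limma p of 0.00935 unadjusted and 0.755 adjusted over the 15152 genes above 0 in any library. The pseudocount of 1 FPKM shrinks this difference, which was -1.38 with 0.5 FPKM and -2.96 with 0.1 FPKM. Depth was estimated at 15400000 to 19400000 fragments per library, so that 1 FPKM over 2 kb corresponds to 30.9 to 38.8 fragments. By limma, 0 of 10407 genes had a Benjamini-Hochberg adjusted p under 0.05, which is 0% of those tested, and 759 genes (7.29%) had an unadjusted p under 0.05. Hepatocyte markers were high in every library, with 9 of 10 listed symbols matched and a summed level without Alb of 9224 and 10050 FPKM in KO and 9044 and 10986 FPKM in WT; Alb itself was listed at 0 in WT 2 against 25551 FPKM or more elsewhere. Apoa1 makes up most of that sum, and single hepatocyte markers differed in both directions: Hnf4a had 64.9 and 59.5 FPKM in KO, against 90.4 and 95.8 FPKM in WT, and Apob had 566 and 623 FPKM in KO, against 518 and 501 FPKM in WT. Kupffer cell and macrophage markers, without the abundant Cd68, summed to 37.5 and 32.6 FPKM in KO and to 20.7 and 23.0 FPKM in WT, and 6 of all 10 listed lay higher in both KO libraries (18.3% of genes tested). C1qa lay lower in both, with 3.01 and 3.55 FPKM in KO, against 3.62 and 3.78 FPKM in WT. Sinusoidal endothelial markers summed to 88.7 FPKM in KO 1 and 46.8 FPKM in KO 2, on either side of WT 1 (64.3) and WT 2 (60.9). Stellate markers likewise summed to 24.9 and 10.8 FPKM in KO against 14.2 and 16.4 FPKM in WT. Only 2 of the 10 stellate markers, Dcn and Reln, reached a mean of 1 FPKM. Dcn had 17.5 and 7.02 FPKM in KO, against 8.31 and 8.39 FPKM in WT. Reln had 2.79 and 2.33 FPKM in KO, against 3.47 and 5.65 FPKM in WT. Cholangiocyte markers summed to 37.3 and 23.5 FPKM in KO and to 35.9 and 32.5 FPKM in WT, with Krt7 listed at 0 in both KO libraries. The part of other cell types in the differences below was not tested, and in bulk libraries fewer cells of a type and less RNA per cell cannot be told apart.

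None of the 10 genes passed the test across all genes, and their log2 differences were below 0 for 8 (50.3% of all genes tested) and above 0 for 2. With libraries rescaled to a common total without Alb, 7 were below 0. That scaling moved the median over all genes tested from -0.0011 to 0.035. The lowest differences were those of Gabarapl1, Map1lc3b and Ulk1, each with an unadjusted p under 0.05 and all lower in KO, a direction in which 4.19% of all genes tested had such a p. The libraries of the genotypes did not overlap for 7 members (38.1% of genes tested): KO was the lower group for 6 (19.8% of genes tested) and the higher for 1, Sqstm1 (18.3%). The median difference over the 10 members was -0.19 on the log2 scale, beside -0.0011 over all genes tested. By library, the median of the members relative to each gene's own mean was -0.18 in KO 1 and -0.047 in KO 2, against 0.10 in WT 1 and 0.12 in WT 2. KO 1, the lower of the KO libraries, was also the library highest in endothelial, stellate and cholangiocyte markers and, without Cd68, in Kupffer cell and macrophage markers. Its FPKM total was the lowest, 498348 against 546967 in KO 2, 521221 in WT 1 and 520369 in WT 2. The median difference over the members was -0.192 as deposited and -0.195 with libraries rescaled to a common total. Medians by library were not taken under that scaling. Whether the marker levels bear on the members was not tested.

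**Figure D1:**
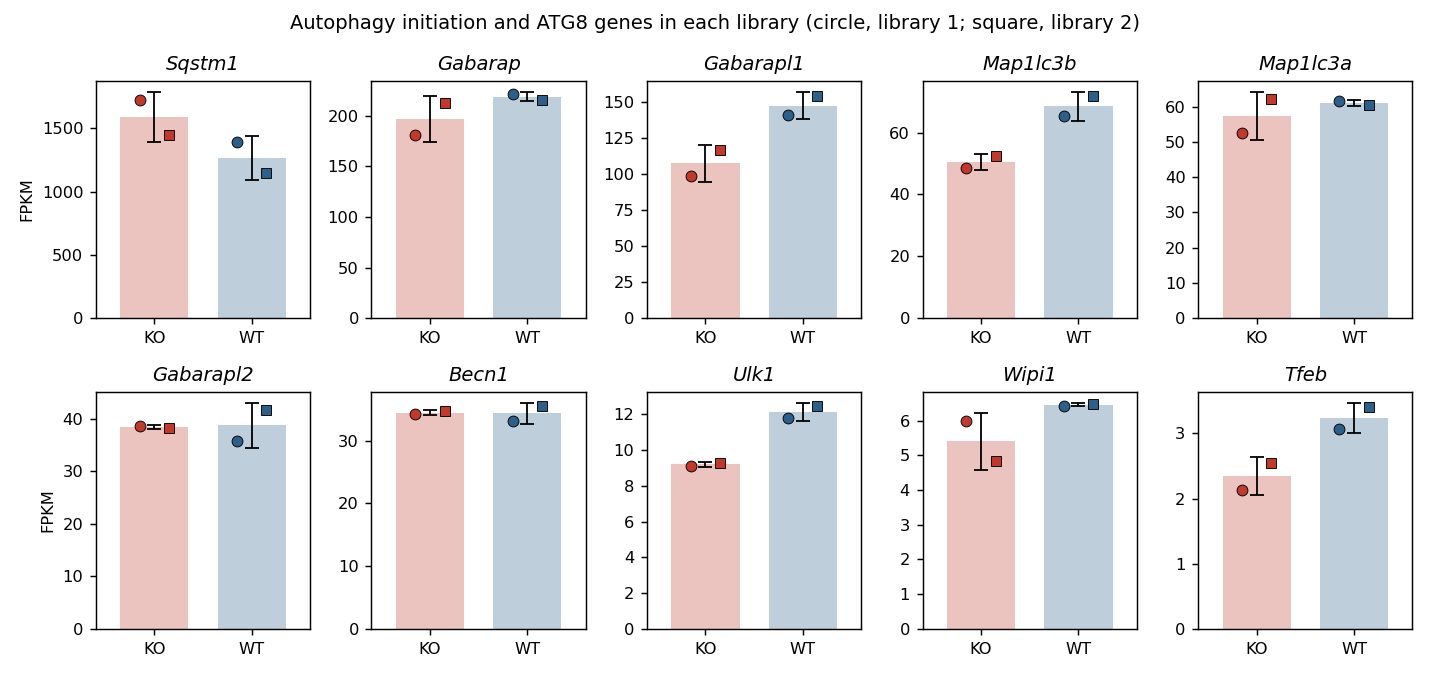
FPKM of the 10 genes in each library, ordered by mean level, with KO left of WT; bars are means, error bars are SD (n = 2) and symbols are libraries. Gabarapl1, Map1lc3b, Ulk1 and Tfeb show both KO symbols below both WT symbols, Sqstm1 shows them above, and Becn1 and Gabarapl2 overlap.

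The members spanned a wide range of levels per length. Sqstm1 averaged 1426 FPKM over the 4 libraries, above 99.6% of the genes tested, followed by Gabarap (208 FPKM) and Gabarapl1 (127 FPKM). Map1lc3b (59.5 FPKM) and Map1lc3a (59.2 FPKM) came next and could not be ordered, since their libraries overlapped. Gabarapl2 (38.6 FPKM), Becn1 (34.4 FPKM), Ulk1 (10.7 FPKM), Wipi1 (5.93 FPKM) and Tfeb (2.79 FPKM) followed, each with every library below every library of the gene before it. The step from Gabarapl2 to Becn1 was narrow, with 35.7 FPKM as the lowest Gabarapl2 value and 35.5 FPKM as the highest Becn1 value.

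Gabarapl1, a GABARAP subfamily member known as a fasting- and FOXO-responsive gene, had 98.2 and 116 FPKM in KO 1 and KO 2, against 141 and 154 FPKM in WT 1 and WT 2. Every KO library was below every WT library, by at least 24.5 FPKM. The log2 difference was -0.46 (SE 0.12, 95% interval -0.76 to -0.16), with a limma p of 0.0100 unadjusted and 0.562 adjusted. It was -0.34 without KO 1 and -0.58 without KO 2. The gene (ENSMUSG00000030161) lies on chr6:129533160-129542346 of mm10, plus strand, and its exons overlap an antisense transcript gene, 1700101I11Rik; whether counting used strand is not given in the sources used here.

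Map1lc3b encodes LC3B, the ATG8 protein most used as an autophagosome marker. It had 48.6 and 52.4 FPKM in KO 1 and KO 2, against 65.2 and 71.7 FPKM in WT 1 and WT 2. The KO libraries were again the low ones, with a gap of 12.8 FPKM to the nearest WT library. The log2 difference was -0.43 (SE 0.10, 95% interval -0.69 to -0.17), with a limma p of 0.00629 unadjusted and 0.536 adjusted. The gene (ENSMUSG00000031812, chr8:121590361-121598760, plus strand) shares exonic sequence with Zcchc14 on the opposite strand, which stood at 16.5 and 13.0 FPKM in KO and 13.0 and 14.3 FPKM in WT. It also has 4 processed pseudogenes of 96.5% to 99.7% identity over 360 to 378 bases, so reads from this stretch may have been shared, and its value is uncertain to that extent.

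The remaining ATG8 genes differed less between genotypes. Gabarap (ENSMUSG00000018567, chr11:69991143-69994951, plus strand), the founding member of its subfamily, had 181 and 213 FPKM in KO 1 and KO 2, against 222 and 216 FPKM in WT 1 and WT 2. The groups did not overlap, but KO 2 lay only 3.28 FPKM below WT 2, and the log2 difference of -0.16 (SE 0.12, limma adjusted p = 0.813) became -0.042 without KO 1 and -0.28 without KO 2. Map1lc3a (ENSMUSG00000027602, chr2:155276297-155278073, plus strand), which encodes LC3A, had 52.5 and 62.1 FPKM in KO, against 61.6 and 60.6 FPKM in WT. Its KO libraries lay on both sides of the WT libraries, and the log2 difference was -0.095 (95% interval -0.38 to 0.19). Gabarapl2 (ENSMUSG00000031950, chr8:111940703-111953612, plus strand), which encodes GATE-16, had 38.7 and 38.2 FPKM in KO, inside the WT values of 35.7 and 41.7 FPKM. Its log2 difference was -0.0065 (95% interval -0.28 to 0.27), and 3 processed pseudogenes of 96.6% to 99.4% identity make its level uncertain.

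Summed over the 5 ATG8 genes, the transcript pool was 419 and 482 FPKM in KO 1 and KO 2, against 525 and 544 FPKM in WT 1 and WT 2. Both KO sums were lower, and the log2 difference was -0.25; the exact permutation test gave a two-sided p of 0.333, the smallest that 2 libraries against 2 allow. The split between subfamilies was close in all libraries: Gabarap, Gabarapl1 and Gabarapl2 made up 75.8% and 76.2% of the pool in KO and 75.9% and 75.7% in WT (exact permutation p = 0.667). Within each subfamily the shares of the genotypes did not overlap. Gabarapl1 held 23.5% and 24.1% of the pool in KO, against 26.8% and 28.3% in WT, while Gabarap held 43.1% and 44.1% in KO, against 42.3% and 39.7% in WT. In the LC3 subfamily, Map1lc3b stood at 0.925 and 0.844 times the level of Map1lc3a in KO, against 1.06 and 1.18 times in WT. These ratios within a library do not depend on library scaling; they were chosen after the values were seen, and each gave the smallest permutation p possible, 0.333.

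**Figure D2:**
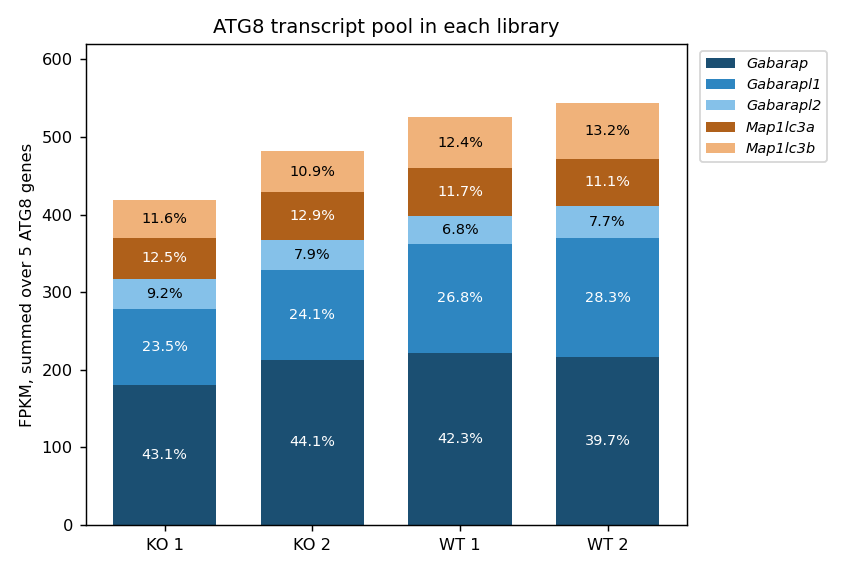
FPKM of the 5 ATG8 genes stacked for each library, with each gene's percentage of the sum printed in its segment. The KO stacks reach 419 and 482 FPKM and the WT stacks 525 and 544 FPKM, with smaller Gabarapl1 and Map1lc3b segments in KO.

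Ulk1 encodes the kinase that starts autophagosome formation under control of mTORC1 and AMPK. It had 9.11 and 9.30 FPKM in KO 1 and KO 2, against 11.8 and 12.5 FPKM in WT 1 and WT 2. The replicates of each genotype lay close together, and both KO libraries were at least 2.51 FPKM below the WT libraries. The log2 difference was -0.37 (SE 0.11, 95% interval -0.63 to -0.097), with a limma p of 0.0158 unadjusted and 0.586 adjusted, and it ran from -0.40 to -0.33 with each library left out in turn. Ulk1 (ENSMUSG00000029512) lies on chr5:110784488-110810097, minus strand, with no annotated gene overlapping it. Prom1 lies far from it on the same chromosome, at chr5:43993620-44102032. Without WT 2, the log2 differences of Gabarapl1, Map1lc3b and Ulk1 were -0.39, -0.36 and -0.33, and none kept an unadjusted p under 0.05 (limma p of 0.0620, 0.0535 and 0.0997). Without WT 1, Ulk1 alone of the 3 lost it (-0.40, limma p of 0.0515).

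Becn1 encodes Beclin 1, the scaffold of the lipid kinase complex. It had 34.2 and 34.8 FPKM in KO 1 and KO 2, against 33.2 and 35.5 FPKM in WT 1 and WT 2. The KO values fell within the WT range, and the 95% interval of the log2 difference of 0.0056 ran from -0.23 to 0.24. The gene (ENSMUSG00000035086, chr11:101285952-101302286, minus strand) overlaps Cntd1 on the opposite strand, which stayed at or under 0.0312 FPKM. Wipi1 (ENSMUSG00000041895, chr11:109573331-109611967, minus strand), whose product binds the lipid made by that complex, had 5.98 and 4.83 FPKM in KO, against 6.42 and 6.49 FPKM in WT. The KO libraries were the lower ones but KO 1 was near the WT values, and the log2 difference of -0.23 (SE 0.14, limma adjusted p = 0.772) was -0.095 without KO 2 and -0.36 without KO 1.

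Tfeb had the lowest level of the 10 genes. It stood at 2.14 and 2.55 FPKM in KO 1 and KO 2, against 3.07 and 3.40 FPKM in WT 1 and WT 2. Both KO libraries were lower, by at least 0.518 FPKM, and the log2 difference was -0.34 (SE 0.16, 95% interval -0.74 to 0.056, limma adjusted p = 0.704). The pseudocount of 1 FPKM shrinks differences at this level: with 0.1 FPKM the value was -0.45. Tfeb (ENSMUSG00000023990) lies on chr17:47737030-47792419, plus strand.

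Sqstm1 was the single member with both KO libraries above both WT libraries. It had 1726 and 1449 FPKM in KO 1 and KO 2, against 1387 and 1144 FPKM in WT 1 and WT 2. KO 2 exceeded WT 1 by only 62.0 FPKM, less than the spread within either genotype (SD 195 in KO and 172 in WT). The log2 difference was 0.33 (SE 0.18, 95% interval -0.11 to 0.76), with a limma p of 0.113 unadjusted and 0.731 adjusted. It was 0.20 without KO 1 and 0.19 without WT 2, and 0.45 without KO 2 (limma p of 0.0466 unadjusted) and 0.47 without WT 1. The gene (ENSMUSG00000015837, chr11:50199366-50210827, minus strand) overlaps Mrnip on the opposite strand, which stood at 0.399 to 0.616 FPKM.

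**Figure D3:**
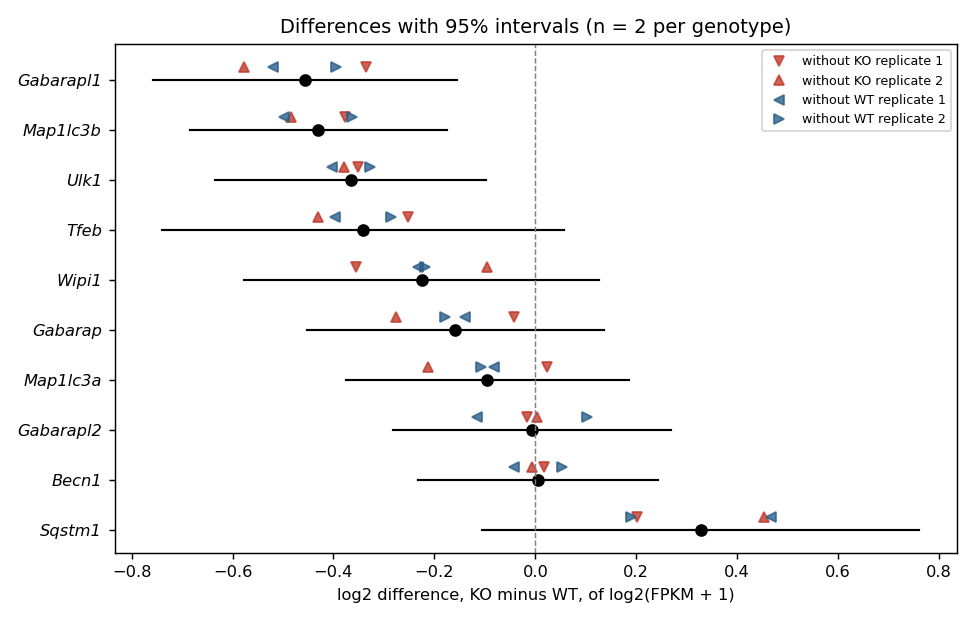
Difference in log2(FPKM + 1), KO minus WT, for each of the 10 genes, with its 95% interval from limma (line) and the value with each library left out (triangles). The intervals of Gabarapl1, Map1lc3b and Ulk1 lie below 0, those of the other 7 genes include 0, and the triangles of Map1lc3a, Gabarapl2 and Becn1 fall on both sides of 0.

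The promoters of the 3 genes with the lowest differences and of Sqstm1, the gene with the highest difference, are printed as RefSeq gives them in GRCm38.p6, from 250 bases before the annotated start to 50 bases after it. Capitals mark a match to one of the motifs searched on both strands: CACGTG (E-box core), GTCACGTG (part of the CLEAR element bound by TFEB, which holds the E-box core), TGACNNNGC (antioxidant response element core) and TGTTTAC (forkhead).
Gabarapl1, chr6:129532942-129533241, plus strand: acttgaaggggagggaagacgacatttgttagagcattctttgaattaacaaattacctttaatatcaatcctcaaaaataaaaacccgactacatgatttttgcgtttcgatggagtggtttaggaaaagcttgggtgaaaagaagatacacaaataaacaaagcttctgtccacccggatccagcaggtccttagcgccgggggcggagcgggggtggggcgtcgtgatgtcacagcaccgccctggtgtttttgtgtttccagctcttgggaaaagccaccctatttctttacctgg
Map1lc3b, chr8:121590188-121590487, plus strand: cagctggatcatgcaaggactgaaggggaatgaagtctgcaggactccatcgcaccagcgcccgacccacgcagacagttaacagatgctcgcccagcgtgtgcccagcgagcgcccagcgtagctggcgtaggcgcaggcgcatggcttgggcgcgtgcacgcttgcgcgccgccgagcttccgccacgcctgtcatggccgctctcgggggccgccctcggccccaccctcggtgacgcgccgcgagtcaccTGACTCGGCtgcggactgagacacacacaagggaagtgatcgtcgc
Ulk1, chr5:110810032-110810331, minus strand: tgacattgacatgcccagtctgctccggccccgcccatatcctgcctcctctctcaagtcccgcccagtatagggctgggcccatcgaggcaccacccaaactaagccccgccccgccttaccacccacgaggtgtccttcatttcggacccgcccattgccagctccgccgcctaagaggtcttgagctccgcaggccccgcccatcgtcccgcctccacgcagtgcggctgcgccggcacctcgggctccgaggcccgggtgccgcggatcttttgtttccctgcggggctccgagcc
Sqstm1, chr11:50210771-50211070, minus strand: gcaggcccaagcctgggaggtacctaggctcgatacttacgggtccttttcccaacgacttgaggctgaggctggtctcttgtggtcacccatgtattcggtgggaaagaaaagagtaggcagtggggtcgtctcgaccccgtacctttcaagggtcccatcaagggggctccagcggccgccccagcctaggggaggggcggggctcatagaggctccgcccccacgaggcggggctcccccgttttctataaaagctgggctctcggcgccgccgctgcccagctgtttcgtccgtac
The single match stood in the Map1lc3b window, where TGACTCGGC begins at base 5 of the transcript, counting the start as 1. Of 32851 windows of the same length in the table, 12.39% held TGACNNNGC, 7.15% held CACGTG, 3.65% held TGTTTAC and 2.25% held GTCACGTG. The 10 windows found for 8 of the members, 3 of them for Tfeb, held no match to the letters of the other 3 motifs. Only the letters given above were searched, so looser forms of a motif, forkhead included, were not counted and may be present in lower case. The Gabarapl1 window was the least GC-rich of those printed, with 46.3% G and C, against 68.0% for Map1lc3b, 68.0% for Ulk1, 63.3% for Sqstm1 and a median of 52.7% over all windows.

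Other genes of the pathway were read from 8 lists, which together held 119 genes besides the members, 118 of them tested. None passed the adjusted threshold by limma; 11 had an unadjusted p under 0.05 and all 11 were lower in KO (4.19% of genes tested), and 0 had such a p and were higher (3.10%). Of the 118 genes, 40 had every KO value below every WT value (19.8% of genes tested) and 14 every KO value above (18.3%), and the median log2 difference was -0.081, beside -0.0011 over all genes tested; without KO 1 the median of the 118 was -0.040. The counts and medians of single lists that follow include the member in that list, where there is one. Every KO value was below every WT value (19.8% of genes tested) for 3 of 5 ULK complex and 3 of 8 lipid kinase complex genes. The same held for 4 of 9 ATG9, WIPI and lipid transfer genes, 3 of 11 conjugation genes and 3 of 13 fusion genes. Every KO value was above (18.3%) for 2 ATG9, WIPI and lipid transfer genes, 1 conjugation gene and 0 genes of the ULK, lipid kinase and fusion lists.

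All 5 tested genes of the ULK kinase complex had a log2 difference below 0 (50.3% of genes tested). Their median log2 difference was -0.28, and -0.23 over the 4 besides the member Ulk1. Atg13, which encodes the adaptor that links ULK1 to its regulators, had 12.4 and 14.0 FPKM in KO, against 16.9 and 20.4 FPKM in WT (-0.47, SE 0.13, limma adjusted p = 0.570). The paralogue Ulk2 differed by -0.28 and the scaffold gene Rb1cc1 by -0.18, both with overlapping libraries, and Atg101 by -0.11. The lipid kinase complex, Becn1 included, had a median of -0.0072 over 8 genes, which was -0.091 to -0.052 with a library left out, with Atg14 and the catalytic subunit gene Pik3c3 at -0.24 each, Nrbf2 at -0.14 and the inhibitor gene Rubcn at 0.032. Over the 9 tested genes of the ATG9, WIPI and lipid transfer list, Wipi1 included, the median was -0.11 (0.019 without WT 2), with the lipid transfer genes Atg2a (-0.35) and Atg2b (-0.22) and the WIPI-related gene Wdr45 (-0.12) lower and the scramblase gene Tmem41b higher (41.0 and 33.4 FPKM in KO, against 30.8 and 29.3 FPKM in WT; 0.29).

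The list of ATG8 and ATG12 conjugation genes had a median of -0.094 over 11 genes (-0.033 without KO 1, -0.057 without KO 2), none with an unadjusted p under 0.05. The largest differences were those of Atg10 (-0.23), the protease genes Atg4c (-0.21) and Atg4a (0.15), and Atg16l2 (-0.18), and the last 3 had overlapping libraries. Selective autophagy receptors, Sqstm1 included, had a median of -0.16 over 16 genes (-0.089 without KO 1, -0.082 without WT 2). For 9 of them every KO value was below every WT value (19.8% of genes tested), and for 2 every KO value was above (18.3%), Sqstm1 and Phb2, a mitophagy receptor gene named after its values were seen (172 and 179 FPKM in KO, against 158 and 161 FPKM in WT). The mitophagy receptor genes Bnip3 (-1.58) and Bnip3l (-0.52) led this list. Bnip3 had 32.1 and 29.1 FPKM in KO, against 75.0 and 115 FPKM in WT. Its log2 difference was -1.27 without WT 2 and -1.89 without WT 1. Bnip3l had 16.2 and 18.8 FPKM in KO, against 23.8 and 27.1 FPKM in WT. The ferritin receptor gene Ncoa4 (37.5 and 35.7 FPKM in KO, against 44.1 and 51.8 FPKM in WT) differed by -0.38, and the receptor gene for endoplasmic reticulum, Retreg1, by -0.43. Sqstm1 was thus the receptor gene with the highest difference, 0.33, in a list with 12 of 16 values below 0 (50.3% of genes tested).

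Among 26 regulators around TFEB, mTORC1, AMPK and FOXO, Tfeb included, 13 had every KO value below every WT value (19.8% of genes tested) and 2 every KO value above (18.3%; Mlst8 at 0.045 and Prkab1 at 0.040 on the log2 scale, named after their values were seen), with a median of -0.14 (-0.11 over the 25 besides Tfeb, -0.090 without WT 1). Foxo1 (4.06 and 2.78 FPKM in KO, against 5.38 and 5.07 FPKM in WT) differed by -0.51 and Foxo3 (6.81 and 6.71 FPKM in KO, against 8.65 and 8.61 FPKM in WT) by -0.31; both encode forkhead factors active in fasting. Sesn1, an inhibitor of mTORC1 signalling, differed by -0.53 and Flcn, which lets mTORC1 act on TFEB, by -0.38. The fusion genes had a median of -0.083 over 13 genes (-0.017 without KO 2, -0.018 without WT 2), with Rab7 (126 and 159 FPKM in KO, against 168 and 227 FPKM in WT) at -0.47, Vps39 at -0.31, Plekhm1 at -0.25 and Tecpr1 at 0.33 with overlapping libraries. Lysosomal genes, the main TFEB targets, had a median of 0.0053 over 35 genes, with 17 values below and 18 above 0 and 0 with an unadjusted p under 0.05. For 8 of the 35 every KO value was above every WT value (18.3% of genes tested), and for 5 every KO value was below (19.8%). The largest differences among the 35 were those of the hydrolase genes Gla (-0.37) and Glb1 (0.28), the proton pump gene Atp6v1b2 (-0.22) and the protease gene Ctsl (-0.20).

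**Figure D4:**
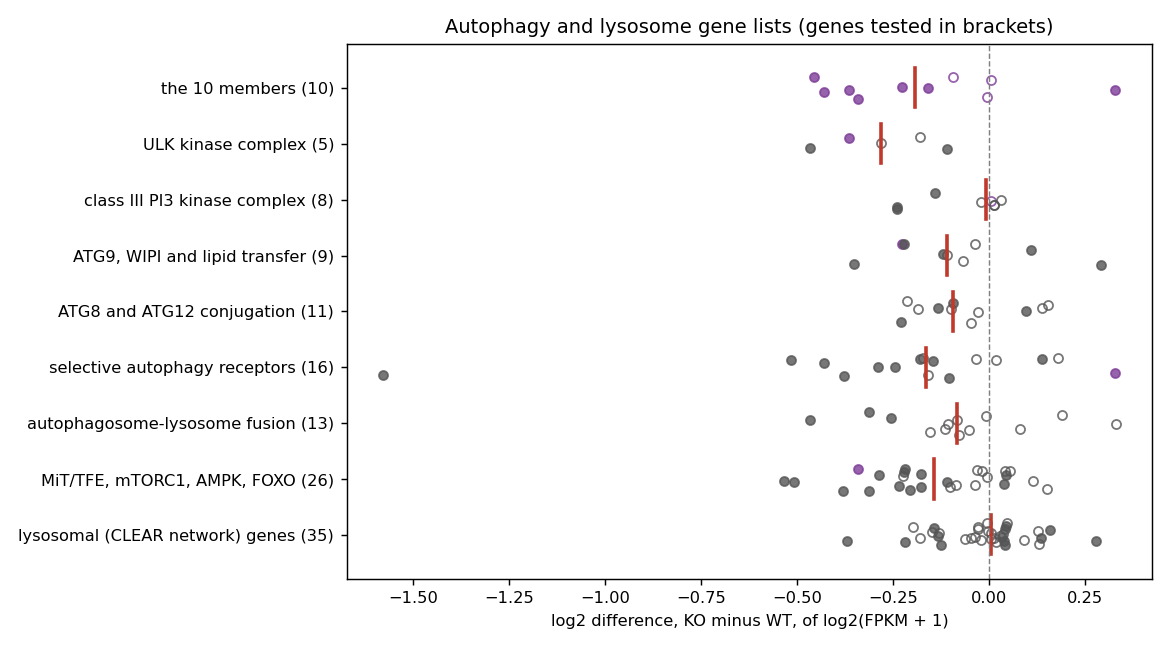
Difference in log2(FPKM + 1), KO minus WT, of each tested gene in the 10 members and in 8 lists; purple marks members, filled symbols mark genes whose KO and WT libraries do not overlap, and red lines are list medians. The median is -0.19 for the 10 members, -0.28 for the ULK complex and 0.0053 for lysosomal genes, and Bnip3 stands alone at -1.58.

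The genes most like the 3 lowest members across the 4 libraries were found by the root mean square distance between log2(FPKM + 1) values centred on each gene's mean, among the 118 tested genes of the lists. Nearest to Gabarapl1 were Bnip3l (0.037) and Atg13 (0.053), where the median distance was 0.22. Nearest to Map1lc3b were Atg13 (0.052) and Flcn (0.054), with a median of 0.20. Nearest to Ulk1 were Foxo3 (0.043) and Fnip1 (0.057), which encodes a partner of folliculin, with a median of 0.17. The 3 members were taken for their large difference between genotypes, so listed genes with a like difference come out near by construction. How many of all genes tested lie as near was not counted. With 4 libraries of 2 genotypes, such likeness describes these libraries only.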

How the data were processed

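The table that the authors deposited gives each gene 1 value per library, read here as FPKM; no column name states the unit. That reading rests on the values and on the tools listed in the submitters' processing notes (Cuffdiff 2.2.1, Cufflinks and STAR 2.5.0, build mm10). The kit was a TruSeq stranded mRNA kit, per the labels' protocols; the counting annotation is not given in the sources used here. FPKM is already divided by length and depth, so no count model was run. Of 22079 gene identifiers, 21984 matched GENCODE M21. Depth was estimated from the spacing of low values in genes with 1 transcript, assuming fragments of 200 bases; it is approximate (14500000 to 19600000 with 150 or 250 bases), and whole fragments were not recovered.

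Deposited values were transformed as log2(FPKM + 1), which understates changes of low genes. Genes whose mean reached 1 FPKM were fitted with limma 3.58.1 in R 4.3.3 (eBayes with trend, genotype only, two-sided, adjusted over all 10407 genes, threshold 0.05); Prom1, under the filter, was read from the fit of all genes above 0 in any library. Intervals are 95% intervals of the moderated fit. Near-identical transcripts were sought with blastn 2.17.0 (at least 95% identity over 200 bases). Replicates share numbers in the labels without a stated pairing. Alternatives were other pseudocounts, filters and scalings, no trend, each library left out and a replicate block. All 10 members are named, with up to 4 tested genes of each list by absolute difference and, for the 3 members with the largest difference, the 2 listed genes of most similar profile. The members and lists were chosen with earlier results of these data known.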

Additional observations from a re-analysis of the deposited data

How the results depend on the processing

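No member passed the adjusted threshold under any of the alternatives run, and 7 of the 10 kept their direction under all of them. The 3 others, all near 0, did not, and the cause was not tested. With each library left out the log2 difference ran from -0.12 to 0.10 for Gabarapl2, from -0.21 to 0.024 for Map1lc3a and from -0.042 to 0.053 for Becn1. Gabarapl2 stood at 0.033 with libraries rescaled to a common total without Alb, an alternative chosen after seeing the data. Under that scaling the median over all genes tested was 0.035, beside -0.0011 in the main fit. The count of genes past the threshold was 0 with all libraries and ran from 0 to 8 with a library left out (8 without WT 1, 5 without KO 1); Bnip3 was the only gene of the lists among them, without WT 1 (log2 difference -1.89, limma adjusted p = 0.0170). Genes with an unadjusted p under 0.05 numbered 318 without WT 2 and 1227 without KO 2. The summed ATG8 level differed by -0.35 to -0.15 and the GABARAP share by 0.079 to 0.45 percentage points with a library left out. With the replicate number as a block, 0 genes passed, and Gabarapl1, Map1lc3b, Ulk1 and Sqstm1 had an unadjusted p under 0.05 by limma (Sqstm1 0.0163); same-numbered libraries deviated together with a correlation of 0.151 across genes, which with 2 pairs does not show that the numbers pair the libraries. Tfeb and Prom1 lie under the 5 FPKM filter and have no value there. With a library left out, list medians ran from -0.24 to -0.15 for the 10 members, -0.40 to -0.19 for the ULK complex, -0.091 to -0.052 for the lipid kinase complex, -0.16 to 0.019 for the ATG9 and WIPI list, -0.10 to -0.033 for conjugation, -0.22 to -0.082 for receptors, -0.077 to -0.017 for fusion, -0.17 to -0.090 for regulators, -0.031 to 0.035 for lysosomal genes and -0.10 to -0.040 for the 118 genes together; the lipid kinase median stood at 0.031 with libraries rescaled to a common total without Alb and at 0.0088 with the 5 FPKM filter. Where 1 library of a genotype was left, limma assumes that it varies like the other genotype's libraries. Depth is only estimated here, so no counting interval is given for a member.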

Other observations

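A pair of transcript ratios within libraries was read after the values were seen. Sqstm1 stood at 35.5 and 27.6 times the level of Map1lc3b in KO 1 and KO 2, against 21.3 and 16.0 times in WT 1 and WT 2. Against the summed ATG8 genes it stood at 4.12 and 3.01 times in KO and at 2.64 and 2.10 times in WT. Sqstm1 lay higher in both KO libraries, and Map1lc3b and the summed ATG8 genes lay lower, so both ratios had to be higher there. The exact permutation p of 0.333, the smallest that 2 libraries against 2 allow, followed from this and adds nothing to the values of the genes.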
